A study of Mus musculus with 24 samples.

Results

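Cysltr1, the first receptor for cysteinyl leukotrienes, was studied together with 5 other genes of the leukotriene pathway in mouse CD4+ T cells. The members were Cysltr1, Cysltr2, Ltb4r1, Alox5ap, Lta4h and Ltc4s, and they were read from every probe set whose single gene symbol was one of these names. This gave 9 probe sets for 6 of the 18193 genes with a value: 2 for Cysltr1, 3 for Lta4h and 1 for each of the others. Cysltr1 was chosen because its intensity is lower at each higher concentration of I-BET-762 in both cell states, so its comparisons with the I-BET-762 arrays are given as descriptions, with no test. The other 5 members belong to the pathway by function.

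Leukotrienes are lipid mediators made from arachidonic acid. The enzyme 5-lipoxygenase (Alox5), helped by its activating protein (Alox5ap, also called FLAP), makes leukotriene A4, which Lta4h turns into leukotriene B4 and Ltc4s joins to glutathione to form leukotriene C4, the first of the cysteinyl leukotrienes. Leukotriene B4 acts on Ltb4r1 (BLT1), which draws effector T cells and granulocytes to sites of inflammation, and cysteinyl leukotrienes act on Cysltr1 and Cysltr2. Myeloid cells and mast cells are the best known makers of leukotrienes, while T cells are known mainly as cells that carry the receptors.

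The 24 arrays form 8 groups of 3 biological replicates. All cells came from 2D2 mice on the C57BL/6 background, which carry a transgenic T cell receptor, so the cells of all groups have a largely fixed receptor. They were first stimulated for 48 h on plates coated with antibodies to CD3 and CD28 in Th1-polarizing culture, in the presence of DMSO, Control-768, 0.25 µM I-BET-762 or 0.5 µM I-BET-762, and were then expanded for 2 days. "Resting" cells were taken at that point, and "activated" cells after 4 h of restimulation with the same antibodies. No group was kept for those 4 h without the antibodies, so restimulation and the added time cannot be told apart. Where restimulation is said below to lower or raise a gene, the comparison of activated with resting cells is meant. I-BET-762 blocks the bromodomains with which BET proteins read acetylated chromatin; Control-768 is the control compound, and DMSO the other control substance. The concentration of Control-768, the age and number of the mice, and whether compound was present during restimulation are not given in the sources used here. It is likewise unstated whether replicates came from separate mice or only separate cultures, so p-values measure the spread between these samples.

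Intensities are in arbitrary units, and the array medians lay between 37.4 and 44.4. The T cell label was met by Cd3e, with group means of 2077 to 3197, and Cd4, with 478 to 953. The summed T cell markers were higher at 0.5 µM than with Control-768, without overlap, at 29821 to 36729 against 27015 to 28496 in resting cells and at 29478 to 30447 against 26066 to 27891 in activated cells. The part of this in the members' values was not tested. Of the myeloid markers, 11 of 12 had every group mean under 100, as had all 8 mast cell and basophil markers, all 4 eosinophil markers and all 5 measured B cell markers. The exception among myeloid markers was Csf1r, at 105 to 139. The summed myeloid markers lay at 322 to 350 on the resting Control-768 arrays and at 330 to 357 on the resting 0.5 µM arrays, and in activated cells at 288 to 344 and 308 to 344. The dendritic cell list had 4 of 7 genes under 100 in every group, among them H2-Aa (32.3 to 41.1) and Itgax (20.3 to 39.4). The others were H2-Ab1, with group means of 806 to 1954, Cd74 (36.3 to 206) and Zbtb46 (72.8 to 171). The summed intensity of this list, in which H2-Ab1 was by far the brightest gene, spanned 1243 to 1912 on the activated Control-768 arrays. On the activated 0.5 µM arrays it spanned 702 to 1511, and the part of this in the members' values was not tested. Of the 2 CD8 T cell markers, Cd8b1 had group means of 445 to 669 and Cd8a of 66.4 to 99.4. The arrays numbered 3 deviated more from their group means over all genes (SD 0.23 to 0.34 on the log2 scale) than the other arrays (0.17 to 0.24). Several values that rest on them are therefore also given without them.

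In resting cells, the brighter Cysltr1 probe set read 2024, 2218 and 1874 with DMSO and 1975, 2590 and 1839 with Control-768. With 0.25 µM I-BET-762 it read 455, 796 and 630, and with 0.5 µM 132, 170 and 78.1. The 4 groups fell into 3 levels: the controls overlapped, all 0.25 µM arrays lay below all control arrays, and all 0.5 µM arrays lay below all 0.25 µM arrays. The mean at 0.25 µM was 29.4% of the Control-768 mean and the mean at 0.5 µM was 5.93% of it. Against DMSO these shares were 30.8% and 6.21%. In RNA from a mixed culture, fewer cells with the transcript and less transcript per cell cannot be told apart.

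In activated cells, the same probe set read 3070, 3720 and 2900 with DMSO and 3521, 3607 and 3183 with Control-768. It read 633, 1071 and 661 with 0.25 µM I-BET-762, and 259, 240 and 94.5 with 0.5 µM. The same 3 separate levels were seen as in resting cells, with the controls highest and the 0.5 µM arrays lowest. The means were 22.9% and 5.75% of the Control-768 mean. In log2(intensity + 16), the scale of all differences given here, Cysltr1 differed from Control-768 by -1.76 and -3.95 in resting cells and by -2.14 and -4.12 in activated cells (SE 0.30 each). The step from 0.25 to 0.5 µM was -2.19 in resting and -1.98 in activated cells. Among all 18193 genes, the fall against Control-768 ranked 10th at 0.25 µM and 3rd at 0.5 µM in resting cells. In activated cells it was the largest at both concentrations. These ranks are a description, since Cysltr1 was chosen for this fall and the added constant of 16 compresses the falls of dim genes. The comparisons at 0.25 and 0.5 µM share their Control-768 arrays.

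**Figure D1:**
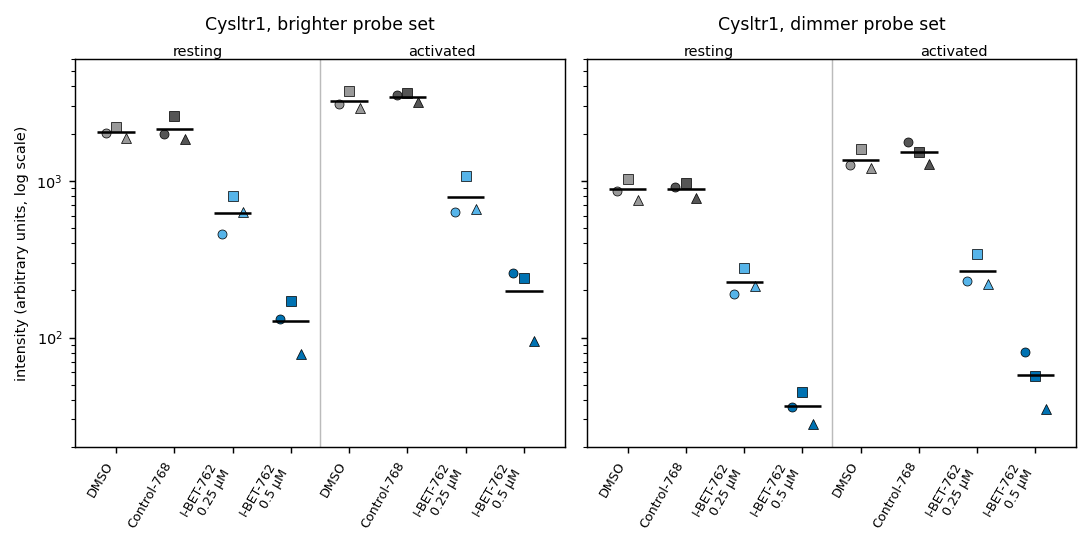
Intensity of Cysltr1 on each array (log axis), for its brighter (left) and dimmer (right) probe set, over the 8 groups. Circles, squares and triangles are replicates 1, 2 and 3, and bars are means of 3 arrays. In both states the control arrays overlap, and the 0.25 µM and 0.5 µM arrays form separate lower levels. On the 0.5 µM arrays of both states replicate 3 is the lowest.

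The dimmer Cysltr1 probe set showed the same order. Its resting means were 880.0 ± 135 with DMSO, 888 ± 98.6 with Control-768, 226 ± 45.5 at 0.25 µM and 36.4 ± 8.38 at 0.5 µM (SD, n = 3). Its activated means were 1354 ± 202, 1522 ± 239, 264 ± 67.9 and 57.7 ± 23 in the same order. These correspond to 25.5% and 4.1% of Control-768 in resting cells and to 17.3% and 3.79% in activated cells, slightly smaller shares than for the brighter probe set. Replicate 3 was the lowest at 0.5 µM on both probe sets and in both states. Without the arrays numbered 3, the brighter probe set stood at 27.4% and 6.61% of Control-768 in resting cells and at 23.9% and 6.99% in activated cells.

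Cysltr1 intensities were higher in activated than in resting cells with either control substance, but the difference did not pass the test. On the brighter probe set the means were 2135 ± 400 in resting and 3437 ± 224 in activated cells with Control-768 (SD, n = 3), and no activated array overlapped a resting one. The log2 difference was 0.70 ± 0.30 (95% interval 0.07 to 1.32; limma, adjusted p = 0.114). With DMSO it was 0.65 (0.03 to 1.28; adjusted p = 0.136), also without overlap. On the dimmer probe set, tested among all probe sets, it was 0.76 (0.31 to 1.21; adjusted p = 0.0219) with Control-768 and 0.61 (0.16 to 1.07; adjusted p = 0.0618) with DMSO. The brighter probe set passed when only the compared groups were fitted (adjusted p = 0.0276 with Control-768 and 0.0204 with DMSO). In cells that had received I-BET-762 the same difference was 0.32 at 0.25 µM and 0.53 at 0.5 µM, with overlapping arrays.

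Ordered by mean, Cysltr1 was highest in activated cells with Control-768, followed by activated DMSO, resting Control-768, resting DMSO, activated 0.25 µM, resting 0.25 µM, activated 0.5 µM and resting 0.5 µM. The arrays of neighbours in this order overlapped within each pair of the same substance class (both activated controls, both resting controls, both 0.25 µM groups, both 0.5 µM groups) and did not overlap between these pairs. Control-768 and DMSO differed by 0.05 (-0.57 to 0.68) in resting and 0.10 (-0.53 to 0.72) in activated cells (limma, adjusted p = 1 each). The difference from Control-768 in activated cells, minus that in resting cells, was -0.38 at 0.25 µM and -0.17 at 0.5 µM (SE 0.42, or 0.33 with the replicate block) on the brighter probe set, and -0.56 and -0.31 (SE 0.31) on the dimmer one, given as a description.

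Cysltr2, the second receptor for cysteinyl leukotrienes, was dim on every array, between 39.8 and 90.5. Its resting means were 68.7 ± 18.9 with DMSO, 69.7 ± 15.9 with Control-768, 56.3 ± 20.2 at 0.25 µM and 58.8 ± 18.4 at 0.5 µM (SD, n = 3). The activated means were 77.9 ± 20.7, 74 ± 19.9, 51.4 ± 9.55 and 59 ± 13.5. The groups overlapped in each of these comparisons, and no difference passed the test. With both concentrations set against both controls, the difference was -0.22 (-0.59 to 0.14; limma, adjusted p = 0.78) in resting and -0.36 (-0.72 to 0.00; adjusted p = 0.557) in activated cells. At intensities this low, the added constant of 16 compresses differences.

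The 2 members that were lower after restimulation with both control substances were Ltb4r1 and Lta4h, and their promoters are shown for that reason. RefSeq's GRCm38.p6 table held a promoter (250 bases before to 50 after the gene's start) for 4 of the 6 members. The Ltb4r1 promoter lies at chr14:55765712-55766011 on the plus strand and the Lta4h promoter at chr10:93453146-93453445 on the plus strand. Capitals mark CACCC boxes (CACCC) and GC boxes (GGGCGG) on either strand.
Ltb4r1 promoter: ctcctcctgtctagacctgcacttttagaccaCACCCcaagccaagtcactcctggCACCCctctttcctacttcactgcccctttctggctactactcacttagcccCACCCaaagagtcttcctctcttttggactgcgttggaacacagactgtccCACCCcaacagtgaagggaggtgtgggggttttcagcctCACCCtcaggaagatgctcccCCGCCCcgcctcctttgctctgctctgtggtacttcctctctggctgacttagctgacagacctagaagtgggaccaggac
Lta4h promoter: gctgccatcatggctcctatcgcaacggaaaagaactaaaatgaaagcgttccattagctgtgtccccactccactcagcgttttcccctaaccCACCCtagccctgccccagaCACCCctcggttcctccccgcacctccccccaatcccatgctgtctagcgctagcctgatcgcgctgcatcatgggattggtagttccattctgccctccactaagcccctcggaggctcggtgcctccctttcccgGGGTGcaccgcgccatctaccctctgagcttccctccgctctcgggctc
Ltb4r1 held 5 CACCC boxes and 1 GC box, and Lta4h held 3 CACCC boxes and no GC box. At least 1 CACCC box was present in 57.5% and at least 1 GC box in 35.7% of all 32851 promoters of this length. Both strands were also searched for the CCAAT box (CCAAT, in 37.4% of promoters), which occurred 2 times in Lta4h and 0 times in Ltb4r1, and for the NFAT core (TTTCC, in 61.3%), which occurred 3 times in Lta4h and 1 time in Ltb4r1. The AP-1 site TGANTCA (in 7.81%) was found in neither window. Cysltr2 and Ltc4s, the other members with a promoter, held 3 and 4 CACCC boxes and 2 NFAT cores each. The CCAAT box occurred 2 times in Cysltr2 and 0 times in Ltc4s, and neither held a GC box or AP-1 site. A match of letters is a description of the sequence and not a binding site.

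Ltb4r1, the high-affinity receptor for leukotriene B4, fell with 0.5 µM I-BET-762 in resting cells. Its intensities were 860, 926 and 1001 with DMSO, 896, 981 and 1065 with Control-768, 648, 676 and 635 at 0.25 µM, and 469, 520 and 629 at 0.5 µM. Every array with I-BET-762 lay below every control array, and all 0.5 µM arrays lay below all 0.25 µM arrays, the closest being 629 and 635. The fall at 0.5 µM was -0.85 ± 0.12 against Control-768 (95% interval -1.11 to -0.59; limma, adjusted p = 0.000496). Ltb4r1 was 1 of 5 tested members called lower there, against 0.929% of all genes; fitted on the compared groups alone, its adjusted p was 0.125. At 0.25 µM the difference was -0.57 (-0.83 to -0.31) and did not pass the test (adjusted p = 0.128), while with the replicate number as a block within the state it did (adjusted p = 0.00541). At 0.25 µM 0 of 5 members were called, against 0.0440% of all genes lower. The difference between the concentrations was -0.28 (-0.54 to -0.02; adjusted p = 0.663), and 0 of 5 members were called, against 0.0495% of all genes lower. With both concentrations against both controls, Ltb4r1 fell by 0.67 (adjusted p = 0.000114), again as 1 of 5 members, against 1.23% of all genes.

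In activated cells, Ltb4r1 read 566, 615 and 520 with DMSO, 617, 626 and 543 with Control-768, 604, 549 and 473 at 0.25 µM, and 431, 394 and 350 at 0.5 µM. The 0.25 µM arrays overlapped the controls, and the 0.5 µM arrays lay below all others. At 0.5 µM Ltb4r1 fell by 0.59 against Control-768 (-0.84 to -0.33; limma, adjusted p = 0.0253), as 1 of 5 tested members, against 0.495% of all genes, while 0 of 5 were higher, against 0.231%. This call was lost without Control-768 replicate 1 (adjusted p = 0.134) or 2 (0.123), without 0.5 µM replicate 2 (0.0688) or 3 (0.117), against DMSO (0.0578) and in a fit of the compared groups alone (0.283). At 0.25 µM the difference was -0.13 (-0.39 to 0.12; adjusted p = 1), and 0 of 5 members were called, against 0.0440% of all genes lower. The step from 0.25 to 0.5 µM was -0.45 (-0.71 to -0.19; adjusted p = 0.802, or 0.0462 with the replicate block), and 0 of 5 members were called, against 0.0110% of all genes lower. Both concentrations against both controls gave -0.33 (adjusted p = 0.0802, or 0.00461 with the replicate block), with 0 of 5 members called, against 0.792% of all genes lower.

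Restimulation lowered Ltb4r1 by 0.71 (-0.96 to -0.45; limma, adjusted p = 0.00051) with Control-768 and by 0.70 (adjusted p = 0.000543) with DMSO. In each case all activated arrays lay below all resting arrays. With 0.25 µM I-BET-762 the difference was -0.27 (adjusted p = 0.164). With 0.5 µM it was -0.44 (adjusted p = 0.0129), a call lost without replicate 3 of the resting (0.0796) or the activated (0.0748) 0.5 µM arrays and without all arrays numbered 3 (-0.25, adjusted p = 0.0939), and in a fit of the compared groups alone (0.141). The interaction of I-BET-762 and restimulation was 0.44 (0.07 to 0.80; adjusted p = 1) at 0.25 µM and 0.27 (-0.10 to 0.63; adjusted p = 1) at 0.5 µM, so a difference between the states was not shown. The resting 0.5 µM mean, 539 ± 81.9, and the activated control means, 567 ± 47.5 with DMSO and 595 ± 45.7 with Control-768 (SD, n = 3), lay side by side.

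**Figure D2:**
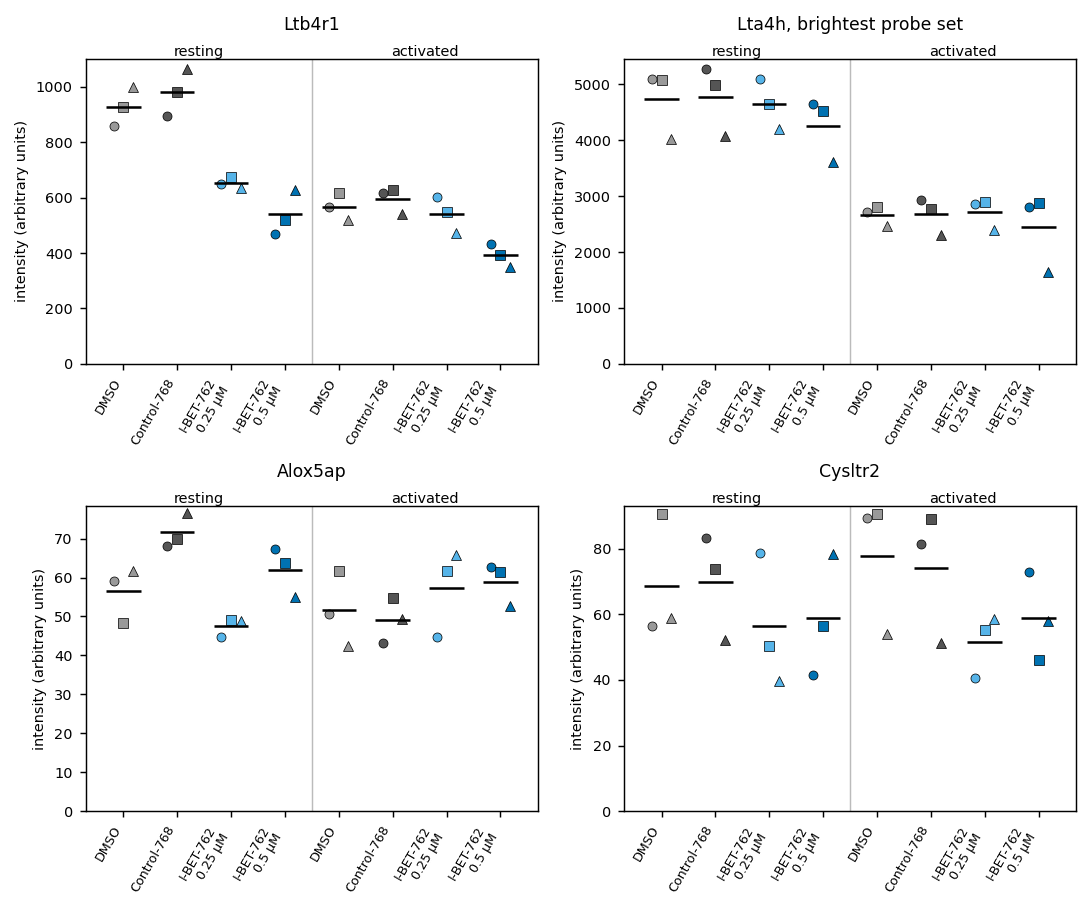
Intensity of Ltb4r1, Lta4h (brightest probe set), Alox5ap and Cysltr2 on each array, over the 8 groups, on linear axes that start at 0. Circles, squares and triangles are replicates 1, 2 and 3, and bars are means of 3 arrays. Ltb4r1 is lower in activated controls and with 0.5 µM I-BET-762, Lta4h is lower in all activated groups, and Alox5ap and Cysltr2 stay under 100.

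Alox5ap, which presents arachidonic acid to 5-lipoxygenase, was dim, at 42.3 to 76.7 over the 24 arrays. Resting cells read 59.2, 48.3 and 61.8 with DMSO, 68.2, 69.9 and 76.7 with Control-768, 44.7, 49.1 and 48.8 at 0.25 µM, and 67.3, 63.7 and 55 at 0.5 µM. The highest resting group was Control-768 and the lowest 0.25 µM, so there was no order by concentration. The difference from Control-768 was -0.46 (-0.73 to -0.19; limma, adjusted p = 0.397) at 0.25 µM and -0.17 (-0.44 to 0.10; adjusted p = 0.735) at 0.5 µM, and against DMSO the latter was 0.11 (adjusted p = 0.854). In activated cells the means were 51.6 ± 9.71, 49 ± 5.75, 57.4 ± 11.2 and 59 ± 5.4 (SD, n = 3), and the groups overlapped. Restimulation lowered Alox5ap by 0.43 (-0.70 to -0.16; adjusted p = 0.0214) with Control-768, whereas with DMSO the difference was -0.11 (adjusted p = 0.648). The call with Control-768 was lost without resting replicate 3 (adjusted p = 0.0752) and without activated replicate 1 (0.0916) or 3 (0.0577), and without all arrays numbered 3 (0.0559). Control-768 and DMSO differed in resting cells by 0.28 (0.01 to 0.55; adjusted p = 1) without overlap. Over all genes 0 passed this comparison in limma in either state, with 428 (resting) and 300 (activated) at an unadjusted p under 0.05.

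Lta4h, the hydrolase that makes leukotriene B4, fell on restimulation in all 4 treatments on its brightest probe set. With Control-768 it read 5274, 4990 and 4078 in resting and 2938, 2769 and 2308 in activated cells. All activated arrays lay below all resting ones, and the same held in the other 3 treatments. The change was -0.83 ± 0.18 with Control-768 (-1.21 to -0.46; limma, adjusted p = 0.00265), -0.82 with DMSO (adjusted p = 0.00295), -0.77 at 0.25 µM (adjusted p = 0.00697) and -0.83 at 0.5 µM (adjusted p = 0.0021). With the mean of all 3 Lta4h probe sets the changes at 0.25 µM (-0.31, adjusted p = 0.214) and 0.5 µM (-0.28, adjusted p = 0.24) did not pass, and fitted on the compared groups alone the change at 0.5 µM had an adjusted p of 0.0857. The other probe sets were dim, with means of 75.4 and 18.7 over all arrays, and by themselves gave -0.62 (adjusted p = 0.366) and -0.13 (adjusted p = 0.695) with Control-768.

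No difference of Lta4h between I-BET-762 and Control-768 passed the test, though the intervals below reach -0.54. In resting cells it read 4639, 4515 and 3613 at 0.5 µM, each below the Control-768 array of the same number. With the replicate block this difference was -0.17 ± 0.11 (limma, adjusted p = 0.449). Its resting means were 4729 ± 616 with DMSO, 4781 ± 625 with Control-768, 4643 ± 445 at 0.25 µM and 4256 ± 560 at 0.5 µM (SD, n = 3), and these groups overlapped. The differences from Control-768 were -0.04 (-0.41 to 0.34) and -0.17 (-0.54 to 0.21) in resting cells and 0.02 (-0.35 to 0.40) and -0.16 (-0.54 to 0.21) in activated cells (limma, adjusted p = 0.847 to 1). Activated 0.5 µM replicate 3, at 1649, lay far below the other activated arrays of that group, at 2805 and 2886, and without it the difference was 0.10. Ltc4s, the synthase of leukotriene C4, read exactly 1 on 19 of 24 arrays, which appears to be a floor of the deposited values, and at most 2.83, so no change can be read from it.

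**Figure D3:**
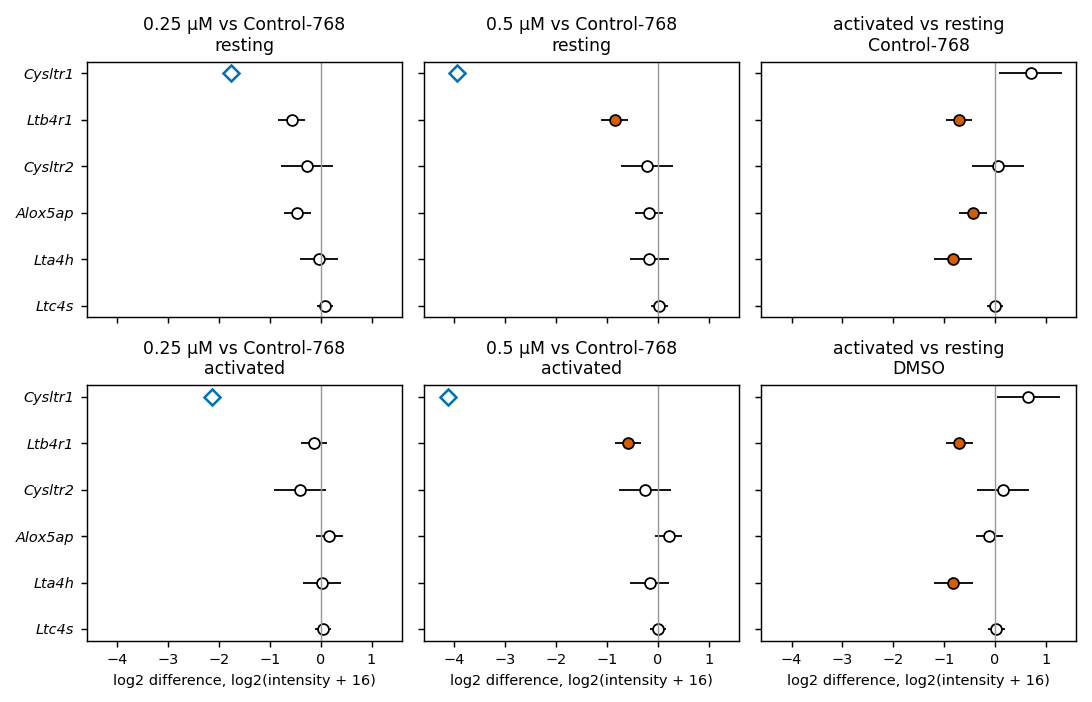
Log2 differences, in log2(intensity + 16), of the 6 members in the 4 I-BET-762 contrasts against Control-768 and in activated against resting cells with either control. Circles carry 95% intervals from limma and are filled where the adjusted p is under 0.05. Diamonds show Cysltr1 where it was chosen on these arrays and has no test. Cysltr1 lies between -4.12 and -1.76 with I-BET-762, while the tested members lie between -0.85 and 0.21.

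After restimulation, 3 of 6 members were called lower with Control-768 (Ltb4r1, Lta4h and Alox5ap), against 11.2% of all genes, and 2 of 6 with DMSO (Ltb4r1 and Lta4h), against 11.7%. The number called higher was 0 of 6 with either, against 8.86% of all genes with Control-768 and 9.10% with DMSO. With I-BET-762, where Cysltr1 was not tested, 1 of 5 was lower at 0.25 µM (Lta4h), against 7.39% of all genes, and 2 of 5 at 0.5 µM (Ltb4r1 and Lta4h), against 12.7%. Across the 8 group means, the correlation with Cysltr1 was 0.75 for Cysltr2, 0.58 for Ltb4r1, -0.02 for Lta4h, -0.24 for Alox5ap and -0.25 for Ltc4s (Pearson's r over 8 groups that come from the same 24 arrays, given as a description). The Cysltr2 means were dim, at 51.4 to 77.9, and nothing can be read from the r of Ltc4s, which lies near the floor. Ltc4s is included in all counts of members.

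The remaining genes of leukotriene synthesis and breakdown, 16 of which had a value besides the members, included 0 that passed in any of the 4 I-BET-762 contrasts against Control-768 (limma; 1 to 5 of them had an unadjusted p under 0.05). Of all 18193 genes, 256 passed at 0.5 µM and 12 at 0.25 µM in resting cells, and 132 and 13 in activated cells. With so few passing, 0 of 16 does not set this list apart. This holds for the fit without the replicate block, here and for the lists below. With the replicate block within each state, 1005 of all genes passed at 0.5 µM in resting cells, among them Mgst3, given below. An unadjusted p under 0.05 was held at 0.5 µM in resting cells by 1955 of all genes and by 5 of the 16. At 0.5 µM in resting cells the median difference of the 16 genes was -0.10, beside -0.00 for all genes. Mgst3, a microsomal glutathione transferase, had the smallest p there, at -0.49 ± 0.17 (adjusted p = 0.207, or 0.00321 with the replicate block). Alox5, the lipoxygenase itself, was dim, with group means of 54.3 to 82.5. Restimulation with Control-768 raised 1 and lowered 2 of the 16, against 8.86% of all genes higher and 11.2% lower. Abcc1, the transporter that exports leukotriene C4, went from 1593, 1594 and 1317 to 3008, 2678 and 3298, a rise of 0.99 ± 0.14 (adjusted p = 9.51e-05). Mgst2, which can make leukotriene C4, fell by 0.66 (adjusted p = 0.00833), from a mean of 4978 to 3134. Ptgr1, which breaks down leukotriene B4, fell by 0.70 (adjusted p = 0.0486), a call that was lost when each of the 6 arrays was left out in turn (adjusted p = 0.0663 to 0.143). The DMSO arrays gave the same 3 calls, with 1.01 for Abcc1, -0.72 for Mgst2 and -0.70 for Ptgr1, and the Ptgr1 call was again lost when each of the 6 arrays was left out in turn (adjusted p = 0.0624 to 0.113). With a constant of 1 the Ptgr1 call was lost with both substances (adjusted p = 0.0648 with Control-768 and 0.0604 with DMSO).

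Among 17 other receptors for lipid mediators and their relatives, 1 fell at 0.5 µM in resting cells, against 0.929% of all genes. This was P2ry14, a receptor for UDP-sugars, which read 173, 132 and 162 with Control-768 and 75.6, 65.4 and 32.5 at 0.5 µM, a difference of -1.26 ± 0.28 (limma, adjusted p = 0.0201). The groups did not overlap, but the call was lost without 0.5 µM replicate 3 (-0.98, adjusted p = 0.149), without Control-768 replicate 1 (0.105) or 3 (0.0648), and without all arrays numbered 3 (-0.95, adjusted p = 0.119). In activated cells its difference was -0.93 (adjusted p = 0.177, or 0.0306 with the replicate block), and 0 of the 17 passed there at either concentration. There, 132 of all 18193 genes passed at 0.5 µM and 13 at 0.25 µM. Restimulation with Control-768 raised 2 and lowered 3 of the 17, against 8.86% of all genes higher and 11.2% lower. Gpr183, a receptor for oxysterols, rose by 1.57 ± 0.24 (adjusted p = 0.000142), and Gpr18 by 1.08 (adjusted p = 0.0144, or 0.0981 without resting replicate 3). S1pr4, a sphingosine-1-phosphate receptor, fell by 1.37 (adjusted p = 0.00214), and P2ry10, a receptor for lysophosphatidylserine, by 1.72 (adjusted p = 0.00794, or 0.0516 without activated replicate 3).

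The nearest genes on either side of Cysltr1 that have a value are Fndc3c1, Taf9b, Pgk1, Tlr13 and Atp7a on one side and Rtl3, Lpar4, P2ry10, P2ry10b and Gpr174 on the other, by the order of RefSeq's GRCm38.p6 gene table. In the 4 I-BET-762 contrasts against Control-768, 0 of these 10 passed (limma; 0 to 2 of them had an unadjusted p under 0.05). Between 12 and 256 of all 18193 genes passed in these contrasts, and 729 to 1955 had an unadjusted p under 0.05. The count of 0 of 10 therefore does not set the neighbours apart from other genes. At 0.5 µM in resting cells, the median of the 10 was -0.06. Fndc3c1, the nearest on its side with a value, read 71.9, 88.6 and 53.8 with Control-768 and 42.4, 58.1 and 25.4 at 0.5 µM in resting cells, a difference of -0.61 ± 0.20 (adjusted p = 0.187, or 0.0152 with the replicate block). With both concentrations against both controls in resting cells Fndc3c1 fell by 0.57 (adjusted p = 0.0442), a call lost with quantile normalization (0.0713) and in most fits without a single array (adjusted p up to 0.141). Atp7a, a copper transporter, read 147, 200 and 172 with Control-768 and 188, 196 and 663 at 0.5 µM in resting cells, so its difference of 0.72 (adjusted p = 0.483) rests on replicate 3, and it was 0.15 without the arrays numbered 3. Rtl3, on the other side, differed by -0.06 in resting and -0.23 in activated cells. P2ry10, which like Cysltr1 encodes a G protein-coupled receptor, differed by 0.26 at 0.5 µM in resting cells (-0.03 without the arrays numbered 3), and Pgk1, a glycolytic enzyme, by -0.07.

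**Figure D4:**
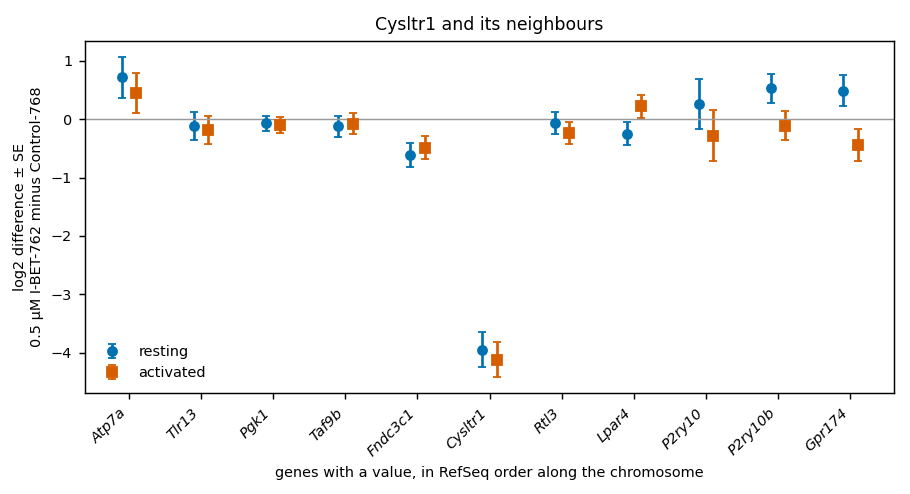
Log2 difference, in log2(intensity + 16), between 0.5 µM I-BET-762 and Control-768 for Cysltr1 and the 5 nearest genes with a value on each side, in their order along the chromosome. Circles are resting and squares activated cells, and bars are the SE from limma. Cysltr1 stands at -3.95 and -4.12, and the 10 neighbours lie between -0.61 (Fndc3c1) and 0.72 (Atp7a), both in resting cells, where Atp7a stood at 0.15 without the arrays numbered 3.

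The genes whose 8 group means were most like those of Cysltr1, among 2707 genes whose group means spanned at least 1 on the log2 scale, were Padi2 (Pearson's r over 8 groups 0.993), Ebi3 (0.989), Ifitm2, Mycn, Lgals3bp and Shroom3 (0.984 each). The 8 groups share a model and all 4 I-BET-762 groups, so these are descriptions of likeness. Padi2 encodes a peptidylarginine deiminase, Ebi3 a subunit of interleukin 27, Mycn a transcription factor of the MYC family, Ifitm2 an interferon-induced membrane protein, Lgals3bp a secreted glycoprotein and Shroom3 an actin-binding protein. The group means of all 6 were lower at 0.5 than at 0.25 µM in both states. This order largely follows from choosing them by likeness to Cysltr1. The Lgals3bp arrays overlapped between 0.5 and 0.25 µM, at 166 to 473 and 446 to 828 in resting cells. In activated cells they read 125 to 555 and 502 to 811. The differences varied in size. Against Control-768 at 0.5 µM, Padi2 differed by -1.58 in resting and -1.63 in activated cells, while Shroom3 differed by -4.66 and -3.92. Mycn came closest to Cysltr1 in the difference on restimulation with Control-768, at 0.75 (SE 0.39) beside 0.70 (SE 0.30). The Mycn arrays overlapped, at 244 to 459 in resting and 412 to 748 in activated cells with Control-768. The other 5 genes lay between -0.06 and 0.25.

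**Figure D5:**
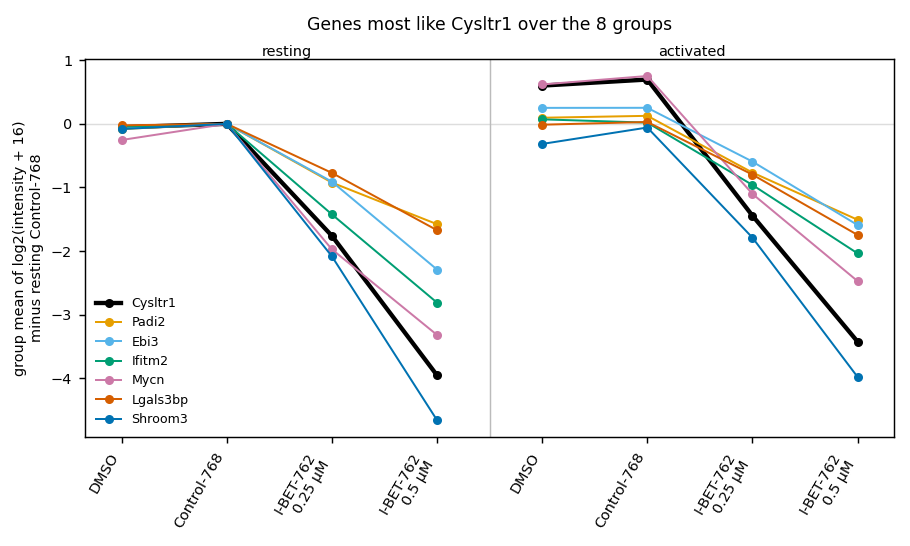
Group means of log2(intensity + 16), minus the resting Control-768 mean of the same gene, for Cysltr1 (thick black line) and the 6 genes with the most similar group means. Every gene steps down from Control-768 to 0.25 µM and to 0.5 µM in both states. Cysltr1 and Mycn lie 0.70 (SE 0.30) and 0.75 (SE 0.39) higher in activated than in resting Control-768 cells. The Mycn arrays of these groups overlap.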

How the data were processed

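RNA was extracted with an RNeasy kit, amplified in 2 rounds with MessageAmp and biotin labelled, per the labels' protocols. The authors deposited linear intensities for 45101 Affymetrix probe sets on each of 24 arrays, summarized and normalized by a method not given in the sources used here. How amplification affected the values was not tested. A platform annotation gave 34945 probe sets a single symbol. The deposited intensities were transformed as log2(intensity + 16), which understates differences of dim genes, and each gene was read from its probe set with the highest mean (18193 genes). One linear model with 8 group means and no block was fitted in limma 3.58.1 (R 4.3.3), with 16 residual degrees of freedom, two-sided tests, Benjamini-Hochberg adjustment over all genes and a threshold of 0.05. The fit was tested on simulated data with independent noise on each array. That test does not cover deviations shared by arrays of the same number.

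The members and lists were chosen with earlier results of these data known. Named are all members; up to 4 list genes per comparison past the threshold by smallest adjusted p, or else the 2 with the smallest p, as far as a list is described; and the 6 genes most like Cysltr1, passing over placeholder symbols. Levels of Alox5, of neighbours (Rtl3, Pgk1, P2ry10) and of markers are given outside that rule. A prostanoid receptor that fell on restimulation with Control-768 is left unnamed. The lists lacked a value for Ggt1, Dpep2, Ltb4r2, Ptgs1, Ptges3, Itpr1 and Grk2. Within a state, arrays of the same number deviated together in 36 of 36 pairs of groups (r 0.15 to 0.70), so the replicate number paired samples within each state, as judged from the data; across states, 16 of 48 pairs exceeded 0.1. Promoters came from RefSeq's GRCm38.p6 table. Alternatives changed the added constant, normalization, probe set choice, filter, model, control, block and arrays; leaving out arrays for the Cysltr1 level, its neighbours and the list genes was added after seeing the data.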

Additional observations from a re-analysis of the deposited data

How the results depend on the processing

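Of 1708 values of single members under the alternatives, 1668 counted as unchanged, 18 no longer passed, 12 newly passed, 10 moved and 0 reversed. Unchanged values kept their side of the threshold, but could change sign within the SE where neither fit gave a call. Lta4h at 0.25 µM in resting cells, for example, lay between -0.15 and 0.04. Moved values changed sign by more than the SE without a call, and reversed would mean a change of sign with a call. The values of Ltc4s, close to the floor, are included. For Cysltr1 against Control-768 in resting cells at 0.5 µM, a constant of 64 gave -3.54 in place of -3.95. Leaving out 1 array gave -4.17 to -3.68 at 0.5 µM and -1.95 to -1.55 at 0.25 µM in resting cells, and -4.36 to -3.70 and -2.38 to -2.01 in activated cells.

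The number of members called changed as follows. At 0.25 µM in resting cells it rose from 0 to 1 with a constant of 64 and with the replicate block within each state. With both concentrations against both controls in activated cells it rose from 0 to 1 with a constant of 64, with dim genes left out, with the replicate block within each state and without the arrays numbered 3. The activated step from 0.25 to 0.5 µM rose from 0 to 1 with the replicate block within each state. At 0.5 µM it fell from 1 to 0 in resting and in activated cells when only the compared groups were fitted, and in activated cells also against DMSO; leaving out 1 array there gave 0 to 1. For restimulation at 0.25 µM it fell from 1 to 0 with the mean of all probe sets. For restimulation at 0.5 µM it fell from 2 to 1 with the mean of all probe sets and without the arrays numbered 3, to 0 with only the compared groups, and lay at 1 to 2 without single arrays. The members concerned in these changes were Ltb4r1 and, in the restimulation of I-BET-762 cells, also Lta4h. For restimulation with Control-768 the number was 3, with 2 to 4 under the alternatives: Alox5ap was lost without single arrays or without the arrays numbered 3 (adjusted p = 0.0559 to 0.0916), and Cysltr1 was gained with the mean of all probe sets (0.0452) and with only the compared groups (0.0276). With DMSO the number was 2, and 3 with Cysltr1 gained with only the compared groups (0.0204). With the replicate block over both states, Cysltr1 passed on restimulation with Control-768 (adjusted p = 0.0288) and DMSO (0.0385); this block changed no other call of a member, and the block within each state changed only those of Ltb4r1 given above.

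The number of genes changed depended on the fit. At 0.5 µM against Control-768 it was 256 in resting cells (29 with only the compared groups, 737 without the arrays numbered 3, 1005 with the replicate block within each state) and 132 in activated cells (28, 498 and 610). At 0.25 µM it was 12 in resting (0, 80 and 97) and 13 in activated cells (2, 57 and 71). The steps between concentrations gave 12 in resting (0 to 208) and 2 in activated cells (0 to 36), and both concentrations against both controls gave 337 (227 to 1031) and 219 (133 to 780). Restimulation gave 3640 with Control-768 (2360 to 6674), 3782 with DMSO (2563 to 7124), 2628 at 0.25 µM (1369 to 4723) and 4229 at 0.5 µM (1220 to 8018); the highest counts come from testing all probe sets, and the lowest from leaving out replicate 3 of the activated group, or at 0.5 µM from fitting only the compared groups. With 3 arrays a group, the median 95% interval reached 0.39 to either side on the log2 scale, 0.55 for interactions and 0.28 for pooled comparisons. Between 28.8% and 30.8% of probe sets per array lay under an intensity of 16, where the added constant compresses differences.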

Other observations

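Prostanoids are the other large class of lipid mediators made from arachidonic acid. Of 9 receptors for them, 1 rose and 3 fell on restimulation with Control-768 (limma, adjusted p under 0.05), against 8.86% of all genes higher and 11.2% lower. Not all of those that fell are named below. With DMSO 1 rose and 2 fell, against 9.10% higher and 11.7% lower. Ptger2, a receptor for prostaglandin E2, rose from a mean intensity of 397 to 1695 with Control-768 (1.91 ± 0.44 in log2(intensity + 16); adjusted p = 0.00408). Ptgir, the prostacyclin receptor, fell by 1.53 ± 0.27 (adjusted p = 0.000632), and Tbxa2r, the thromboxane receptor, by 0.78 ± 0.11 (adjusted p = 8.23e-05). With both I-BET-762 concentrations against both controls in resting cells, Tbxa2r fell by 0.36 (adjusted p = 0.0145, or 0.055 without Control-768 replicate 2). Ptgdr was called higher at 0.5 µM in activated cells (0.81, adjusted p = 0.0288), but its group means were 7.11 and 24.6, and the call was lost with a constant of 64 (0.0649) and without either of the Control-768 replicates 1 and 2 or the 0.5 µM replicates 1 and 2 (adjusted p = 0.0702 to 0.174). Of 9 measured genes of prostaglandin synthesis, 0 passed in any of the 4 I-BET-762 contrasts against Control-768 or on restimulation with either control (limma; 0 or 1 of them had an unadjusted p under 0.05). In the I-BET-762 contrasts 12 to 256 of all 18193 genes passed, so 0 of 9 does not set this list apart there. On restimulation 3640 of all genes passed with Control-768 and 3782 with DMSO.

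Among 16 measured genes of G protein signalling below such receptors, 1 rose and 7 fell on restimulation with Control-768, against 8.86% of all genes higher and 11.2% lower. Gnaq, a G protein alpha subunit that activates phospholipase C, rose by 1.46 ± 0.22 (limma, adjusted p = 0.000151), from a mean of 721 to 1983. Grk6, a kinase that desensitizes receptors, fell by 1.02 ± 0.15 (adjusted p = 0.000149). Arrb1, an arrestin, fell by 1.68 ± 0.44 (adjusted p = 0.0102, or 0.0517 to 0.0642 without single arrays). Itpr2, a calcium channel of the endoplasmic reticulum, fell by 1.24 (adjusted p = 0.000734), but differed by -0.15 (adjusted p = 0.619) on the probe set left when less specific ones were removed. In the 4 I-BET-762 contrasts against Control-768, 0 of the 16 passed (limma; 0 to 2 had an unadjusted p under 0.05). As 12 to 256 of all 18193 genes passed in these contrasts, 0 of 16 does not set this list apart. An unadjusted p under 0.05 was held by 729 to 1955 of all genes. The smallest p among the 16 at 0.5 µM in resting cells was that of Gnaq, at 0.88 ± 0.22 (adjusted p = 0.0538, or 0.000779 with the replicate block). With both concentrations against both controls in resting cells, Gnaq was called higher, as 1 of the 16, where 337 of all genes passed. That call was lost with a constant of 1 (limma, adjusted p = 0.0647), with the mean of all probe sets (0.065) and in several fits without single arrays (up to 0.134).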
